A study of Mus musculus with 6 samples.

Results

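The transcripts described are those of 5 families of splicing factors: the SR proteins (Srsf genes), the heterogeneous nuclear ribonucleoproteins (hnRNPs, Hnrnp genes), the SF3a and SF3b subunits of the U2 particle (Sf3a and Sf3b genes), the proteins of the spliceosomal snRNPs (Snrpa to Snrpg genes) and the U2AF proteins. Members were picked by a pattern in the gene symbol, which uses no measured value, although the families were proposed with earlier results of these data known. The rule found 54 genes among the 30037 that the deposited table names, and 1 pseudogene symbol was left out. The RNA came from L-GMP cells, leukaemia cells that resemble granulocyte-macrophage progenitors, isolated by sorting marrow of AML (acute myeloid leukaemia) mice aged 8 to 10 weeks. WT (wild-type) and Prmt6-/- leukaemia gave 3 libraries each; all mice had leukaemia, and how it was induced was not given in the sources used here. Prmt6 is an enzyme that methylates arginines, and by the title of the series it belongs to an axis that maintains AML stem cells. The labels do not state whether the 3 libraries of a genotype are from different mice; the p-values therefore cover only the spread between these samples, and that spread may be technical.

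Pre-mRNA splicing removes introns in 2 chemical steps carried out by the spliceosome. U1 binds the start of the intron, U2AF binds its end, and the U2 snRNP, through SF3a and SF3b, is placed on the branch point. SR proteins bind exons mostly as activators of splice sites, and hnRNPs often act as repressors, so the balance between them shapes alternative splicing. Many hnRNPs and Sm proteins carry methylated arginines, and SRSF2, SF3B1, U2AF1 and ZRSR2 are recurrently mutated in human myeloid neoplasms. None of that is measured here: the values are transcript levels per gene, not splicing, protein or methylation.

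Values are the authors' deposited log2 expression values, and differences are Prmt6-/- minus wild type on that scale. Errors are standard errors (SE) from limma, a linear model fitted across all genes. A gene was called when its limma p, adjusted by Benjamini-Hochberg over the 15454 tested genes, was under 0.05. Read depth is unknown because the values are not counts, so no counting error can be given. Libraries of 1 genotype correlated at 0.999 and libraries of different genotypes at 0.993 to 0.996 (Pearson's r across tested genes, which are not independent). Prmt6 itself stood at 7.82, 7.60 and 7.41 in wild type and at 5.42, 5.46 and 5.48 in Prmt6-/-. It fell by 2.16 (SE 0.0977, limma adjusted p = 3.57e-06), and by exact two-sided permutation p was 0.1, which no design of 3 against 3 can go below. The authors' deposited table puts its log2 fold change at -7.66, more than 3 times the change seen in the deposited values per sample.

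Splicing factor transcripts shifted in both directions, mostly by small amounts. Of the 54 genes 53 were tested, and 24 of them changed (45.3%): 8 rose (15.1%) and 16 fell (30.2%). Across all tested genes 33.0% were called, 15.0% higher and 18.0% lower. These families have high deposited values, and such genes were called more often: among the 3560 tested genes with a mean of at least 10, 47.6% were called, 16.2% higher and 31.3% lower. Among the 43 splicing factors at that level 48.8% were called, 18.6% higher and 30.2% lower. On the deposited scale the share of calls was thus near that of other genes of high level. The median difference was -0.08 over the 53 factors, -0.05 over the genes of high level and 0.01 over all tested genes. With quantile normalization, or with centring by expression level, the split became 9 higher and 9 lower under each and the median -0.00 and -0.01. The excess of lower calls thus depended on the scaling. Lower calls were then 17.0% of the factors under each. The genes of high level had 22.1% and 22.4% lower, with 998 and 984 of the 3560 higher. All tested genes had 15.4% and 15.3% lower. The median of the genes of high level became 0.04 under each. The number that rose was also smaller with 1 library left out: leaving out wild-type library 1 gave 3, wild-type library 3 gave 4, Prmt6-/- library 2 gave 2 and Prmt6-/- library 3 gave 3. Such fits have fewer samples, and over all tested genes the rises also dropped, from 2324 to between 1699 and 2028. Some calls were lost at nearly the same difference, such as Srsf2 without wild-type library 1 (0.157 in both fits). Others were lost at a smaller one, such as Hnrnpa0 without that library (0.39 to 0.26).

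Only Hnrnpa1 and Hnrnpa3 moved by 0.5 or more among the called factors, and they moved in opposite directions. The smallest called difference was 0.15 and the largest difference not called was -0.22 (Hnrnpul1). In 31 factors (58.5%) the 3 values of one genotype lay entirely above those of the other, against 47.4% of all tested genes and 63.0% of those with a mean of at least 10. Of these 31, 7 were not called. Srsf12, an SR protein that counters its relatives, was the single factor not tested, with values of 0.95 to 1.00 in the 6 libraries. The authors' deposited table called 24 of the tested factors at an adjusted p under 0.05, and all 24 were the ones called here, with the same sign.

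**Figure D1:**
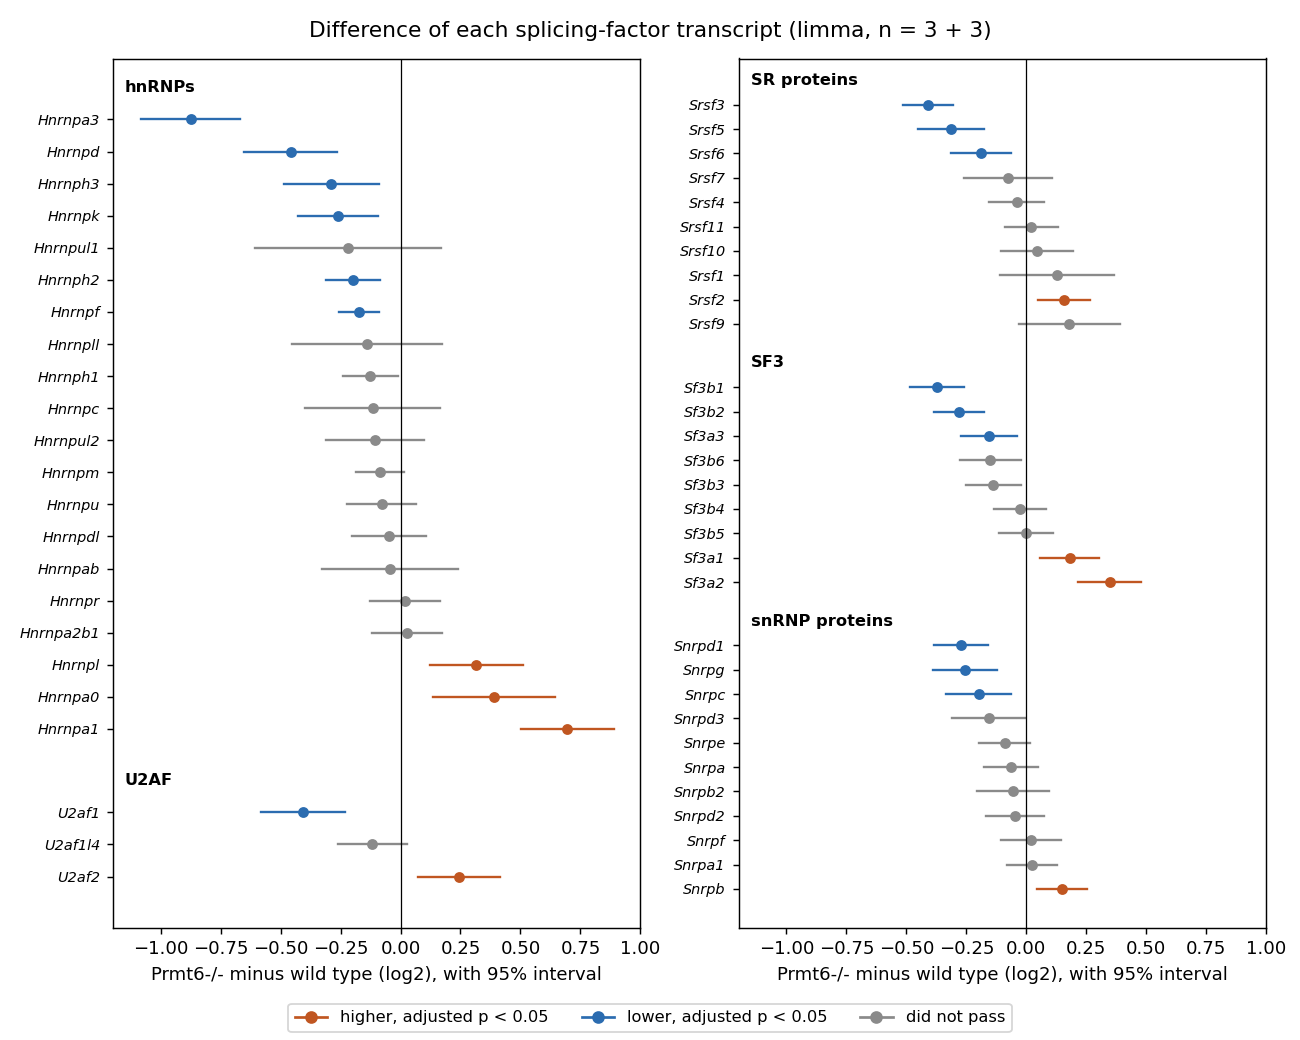
Difference of each tested splicing factor transcript, Prmt6-/- minus wild type in deposited log2 units, with limma's 95% interval (3 libraries per genotype); blue points fell, orange points rose and grey points did not pass. Of the 53 factors 16 fell and 8 rose, and under quantile normalization or centring by level 9 fell and 9 rose.

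**Figure D2:**
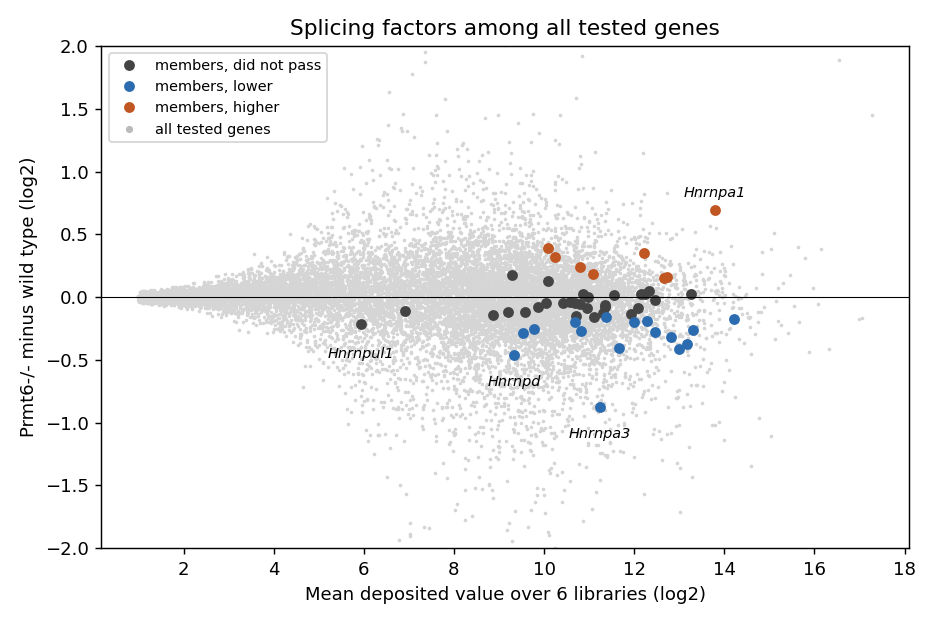
Difference (Prmt6-/- minus wild type, log2) against the mean deposited log2 value over 6 libraries, for all tested genes (light grey) and for the splicing factors (dark grey, blue and orange); 37 tested genes lie beyond the plotted range. Most factors sit at a mean of 10 or more, and Hnrnpa1 and Hnrnpa3 lie farthest from 0 among them.

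Among the SR proteins, 3 of 10 tested fell (Srsf3, Srsf5 and Srsf6), 1 rose (Srsf2) and 6 did not pass, with a median difference of -0.01. The falls were 30.0% and the rises 10.0%, against 18.0% and 15.0% of all tested genes. Tested genes with a mean of at least 10 had 31.3% and 16.2%. Srsf3, the smallest SR protein and also an adaptor for mRNA export, had the largest difference. It stood at 13.15, 13.18 and 13.25 in the wild-type libraries and at 12.78, 12.82 and 12.74 in the Prmt6-/- libraries. The groups did not overlap, and Srsf3 fell by 0.41 (SE 0.0462, limma adjusted p = 0.000231), from 13.19 ± 0.05 (SD, n = 3) to 12.78 ± 0.04.

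Srsf5 encodes an SR protein that binds exonic enhancers. Its values were 12.90, 12.94 and 13.10 in wild type against 12.61, 12.66 and 12.73 in Prmt6-/-. It fell by 0.31 (SE 0.0602, limma adjusted p = 0.00393), with every Prmt6-/- library below every wild-type library. Srsf6, a regulator of alternative exons in many tissues, stood at 12.35, 12.33 and 12.46 against 12.26, 12.14 and 12.16. It fell by 0.19 (SE 0.0556, limma adjusted p = 0.0286), and the group edges were close. The Srsf6 call was lost without wild-type library 3, Prmt6-/- library 2 or Prmt6-/- library 3 (adjusted p = 0.0842, 0.108 and 0.0824) and under quantile normalization or centring (0.285 and 0.329), while Srsf5 kept its call at -0.19 and -0.20.

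Srsf2, an SR protein that promotes inclusion of the exons it binds, moved the other way (chromosome 11, 116849901 to 116853094, GRCm38). It stood at 12.65, 12.71 and 12.60 in wild type and at 12.77, 12.85 and 12.82 in Prmt6-/-, all 3 above the wild-type libraries. It rose by 0.16 (SE 0.0479, limma adjusted p = 0.0327), and under quantile normalization or centring by 0.26 and 0.27. The call was lost without wild-type library 1 or 3 or Prmt6-/- library 2 or 3 (adjusted p = 0.0701, 0.092, 0.123 and 0.0793). On the opposite strand its exons overlap Mettl23 over 15.6% and Mfsd11 over 9.74% of their length. Whether the authors' counting used strand was not given in the sources used here, and those genes differed by 0.05 and 0.03.

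The 6 SR proteins that did not pass ranged from -0.08 (Srsf7) to 0.18 (Srsf9), with limma adjusted p of 0.177 to 0.777. Srsf1, the founding member of the family, stood at 10.02 ± 0.15 and 10.15 ± 0.18 (SD, n = 3), and its 95% interval ran from -0.11 to 0.37. Srsf4, Srsf10 and Srsf11 differed by -0.04, 0.05 and 0.02. Srsf9 varied in wild type (9.15, 9.41 and 9.02) and hardly in Prmt6-/- (9.37, 9.39 and 9.35), so the groups overlapped through wild-type library 2. Without that library the difference was 0.29 and passed (limma adjusted p = 0.0211). The Srsf4 exons share 43.0% of their length with an opposite-strand gene, so its level is uncertain.

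Among the 20 hnRNPs 6 fell, 3 rose and 11 did not pass, with a median difference of -0.11. The falls were 30.0% and the rises 15.0%, against 18.0% and 15.0% of all tested genes. Both shares were near those of tested genes with a mean of at least 10 (31.3% and 16.2%). Those that fell were Hnrnpa3, Hnrnpd, Hnrnpf, Hnrnph2, Hnrnph3 and Hnrnpk, and those that rose were Hnrnpa1, Hnrnpa0 and Hnrnpl. Under quantile normalization or centring 2 fell in each, Hnrnpa3 and Hnrnpd.

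Hnrnpa1 and Hnrnpa3 are paralogs of the A/B group, abundant nuclear proteins whose RNA-binding domains precede a glycine-rich tail with methylated arginines. Because they gave the largest rise and the largest fall, the 250 bases before their RefSeq starts (GRCm38.p6) are shown, with matches to 4 motifs on either strand in capitals. The motifs were the E-box CACGTG, the CCAAT box, the GC box GGGCGG, and the ETS core with letters CCGGAA. Hnrnpa1 lies at chr15:103240147-103240396 on the plus strand and Hnrnpa3 at chr2:75659009-75659258 on the plus strand.
Hnrnpa1: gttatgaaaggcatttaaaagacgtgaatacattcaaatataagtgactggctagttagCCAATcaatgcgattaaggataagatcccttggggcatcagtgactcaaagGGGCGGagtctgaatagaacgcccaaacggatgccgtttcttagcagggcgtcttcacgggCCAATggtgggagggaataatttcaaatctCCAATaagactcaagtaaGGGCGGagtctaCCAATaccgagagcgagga
Hnrnpa3: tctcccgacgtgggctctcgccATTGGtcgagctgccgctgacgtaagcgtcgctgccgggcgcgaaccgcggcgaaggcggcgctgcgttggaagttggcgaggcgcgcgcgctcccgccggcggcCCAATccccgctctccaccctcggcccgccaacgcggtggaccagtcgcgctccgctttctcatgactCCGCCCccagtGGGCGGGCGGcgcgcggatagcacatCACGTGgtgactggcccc
The Hnrnpa1 window held 4 CCAAT boxes and 2 GC boxes. The Hnrnpa3 window held 1 E-box, 2 CCAAT boxes and 3 GC boxes, of which a pair overlap. RefSeq starts were matched for 47 of the 54 factors, some with several starts, giving 62 windows. CCGGAA was in 43.5% of these windows against 12.0% of all 32851 windows of that length, GGGCGG in 71.0% against 32.7%, CCAAT in 45.2% against 33.8% and CACGTG in 8.06% against 6.02%. The 32851 windows were not limited to tested genes or to genes of high level. These shares therefore cannot set the splicing factors apart from other genes of high level. The motifs were chosen after the values were seen, and a match is a stretch of letters, not a bound site.

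Hnrnpa1 (chromosome 15, 103240432 to 103246692, GRCm38) encodes a repressor of splice sites that also acts on telomeres and mRNA export. It stood at 13.24, 13.48 and 13.60 in wild type and at 14.05, 14.21 and 14.15 in Prmt6-/-, and every Prmt6-/- library lay above every wild-type library. It rose by 0.70 (SE 0.0861, limma adjusted p = 0.000377, 95% interval 0.50 to 0.89), 1.62-fold on this scale. The mouse genome holds many processed copies of Hnrnpa1, and the handling of reads shared with them was not given in the sources used here.

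Hnrnpa3 (chromosome 2, 75659261 to 75669407) is best known for binding cytoplasmic transport signals in mRNA. It stood at 11.69, 11.62 and 11.72 in wild type and at 10.61, 10.78 and 11.00 in Prmt6-/-. The wild-type libraries were close to each other, the Prmt6-/- libraries spread more widely, and the groups were far apart. It fell by 0.88 (SE 0.0902, limma adjusted p = 0.000145, 95% interval -1.08 to -0.67), 1.83-fold on this scale.

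The A/B paralog Hnrnpa2b1, a reader and sorter of RNAs, followed neither of them. Its values were 13.17, 13.19 and 13.36 against 13.21, 13.22 and 13.36, a difference of 0.03 (95% interval -0.12 to 0.17, limma adjusted p = 0.792). Under quantile normalization its difference was 0.17 and passed (adjusted p = 0.0446). Hnrnpa0, a smaller intronless relative that stabilizes inflammatory mRNAs, stood at 9.63, 10.05 and 9.98 against 10.13, 10.38 and 10.31. It rose by 0.39 (SE 0.112, limma adjusted p = 0.0255), and wild-type library 1 was the low value. The call was lost without that library, where the difference was 0.26 (adjusted p = 0.0528), without Prmt6-/- library 2 or 3 (0.0954 and 0.0735) and in limma without its trend (0.0544).

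Hnrnpd (AUF1), which binds AU-rich elements and speeds mRNA decay, fell by 0.46 (SE 0.085, limma adjusted p = 0.00332). Its values were 9.66, 9.46 and 9.55 against 9.26, 8.99 and 9.05, with no overlap. Hnrnpl, a regulator of CD45 splicing, stood at 9.90, 10.22 and 10.11 against 10.32, 10.38 and 10.47. It rose by 0.32 (SE 0.0856, limma adjusted p = 0.0199), a call lost without Prmt6-/- library 2 or 3 (adjusted p = 0.058 and 0.0687).

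The G-tract binders Hnrnpf, Hnrnph2 and Hnrnph3 and the C-tract binder Hnrnpk made up the rest of those that fell. Hnrnpf stood at 14.30, 14.31 and 14.27 against 14.10, 14.14 and 14.12. It fell by 0.17 (SE 0.0371, limma adjusted p = 0.00669), a small step between very tight groups. On the opposite strand annotated genes overlap 13.5% and 13.0% of the Hnrnpf exons. Hnrnph2 stood at 12.12, 12.05 and 12.12 against 11.89, 11.95 and 11.85 and fell by 0.20 (SE 0.0496, limma adjusted p = 0.0136). Hnrnph3 stood at 9.52, 9.67 and 9.83 against 9.29, 9.40 and 9.47, a difference of -0.29 (limma adjusted p = 0.0312). Hnrnpk stood at 13.32, 13.46 and 13.55 against 13.06, 13.22 and 13.27, a difference of -0.26 (limma adjusted p = 0.0248), and its groups lay close together.

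All 4 of these calls were lost under quantile normalization (adjusted p = 0.643 for Hnrnpf, 0.119 for Hnrnph2, 0.0623 for Hnrnph3 and 0.138 for Hnrnpk) and under centring (0.339, 0.182, 0.0684 and 0.0785). Hnrnph3 and Hnrnpk also lost theirs without wild-type library 2 or 3 or Prmt6-/- library 1 or 2 (0.0762, 0.0857, 0.106 and 0.0798 for Hnrnph3, 0.0747, 0.0767, 0.0783 and 0.0553 for Hnrnpk), and Hnrnpk in limma without its trend (0.0515).

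The 11 hnRNPs that did not pass ranged from -0.22 to 0.03, with limma adjusted p of 0.0904 to 0.853. Hnrnph1, a G-tract binder, and Hnrnpm, a binder of GU-rich RNA, had groups that did not overlap, with differences of -0.13 and -0.08. Hnrnpu (-0.08), a nuclear scaffold protein, its relatives Hnrnpul1 (-0.22) and Hnrnpul2 (-0.11), the pre-mRNA packaging protein Hnrnpc (-0.12) and the CD45 splicing regulator Hnrnpll (-0.14) overlapped between genotypes. Hnrnpll was high in wild-type library 1 alone (9.31 against 8.82 and 8.71), and without it the difference was 0.04. Hnrnpdl, Hnrnpab and Hnrnpr differed by -0.05, -0.04 and 0.02. Hnrnpul1 had a low deposited mean (6.05 ± 0.29 in wild type, SD, n = 3), and its log2 fold change in the authors' deposited table is -0.66 (adjusted p = 0.399 there), a larger change than on the scale of the sample values. On the opposite strand Phykpl overlaps 29.1% of the Hnrnpab exons, and Hnrnpm shares 14.7% of its exons with a same-strand neighbour, so both levels are uncertain.

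**Figure D3:**
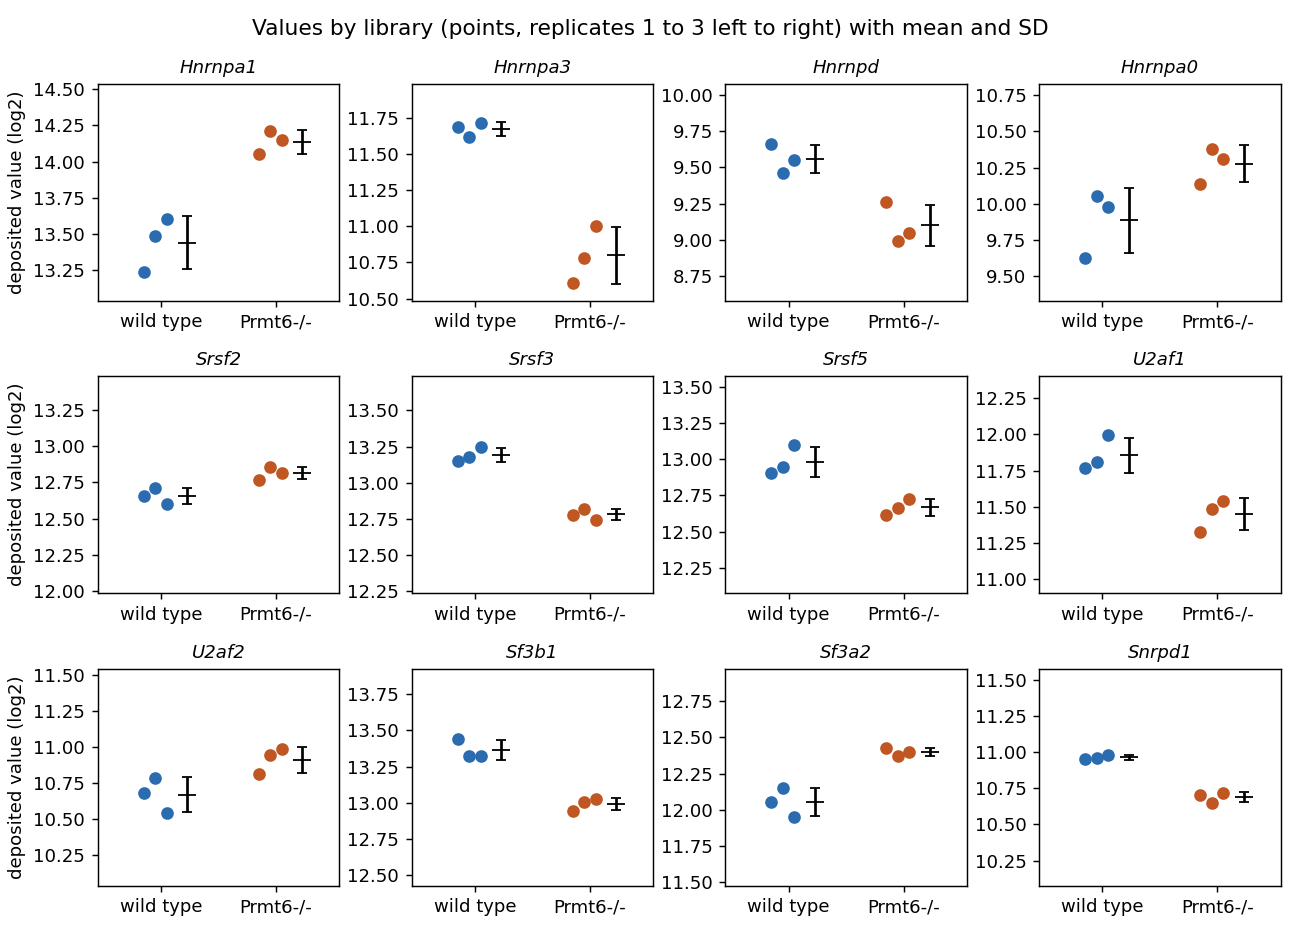
Deposited log2 values of 12 splicing factors in each library (points; replicates 1 to 3 from left to right), with the mean and SD of each genotype (n = 3). The y axes start at different values but span the same range, and Hnrnpa1, Hnrnpa0, Srsf2, U2af2 and Sf3a2 stood higher in all 3 Prmt6-/- libraries while the other 7 stood lower. The 12 were taken from the called factors, none of which overlapped between genotypes, so this separation was fixed by the choice of genes.

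The U2AF proteins recognize the end of the intron. The large subunit, U2af2, binds the polypyrimidine tract and the small subunit, U2af1, reads the AG that follows. The transcripts of the subunits moved in opposite directions. U2af1 (chromosome 17, 31647081 to 31658892) stood at 11.77, 11.81 and 11.99 in wild type and at 11.32, 11.48 and 11.54 in Prmt6-/-, without overlap. It fell by 0.41 (SE 0.0771, limma adjusted p = 0.00368), from 11.86 ± 0.12 (SD, n = 3) to 11.45 ± 0.11.

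U2af2 (chromosome 7, 5062143 to 5079938) stood at 10.68, 10.78 and 10.54 against 10.81, 10.94 and 10.98, with the highest wild-type value just under the lowest Prmt6-/- value. It rose by 0.24 (SE 0.0751, limma adjusted p = 0.0348). The call was lost without wild-type library 1 or 3 (adjusted p = 0.0731 and 0.0975), without Prmt6-/- library 2 or 3 (0.107 and 0.109), without the filter on low values (0.0505) and without limma's trend (0.051). U2af1l4, a small-subunit relative, differed by -0.12 (limma adjusted p = 0.192), and shares 65.6% of its exon length with a same-strand gene. Zrsr2, the U2af1-like protein of the minor spliceosome, stood at 8.97 ± 0.05 and 9.04 ± 0.03 (SD, n = 3) and did not pass (difference 0.06, limma adjusted p = 0.434).

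Among the 9 SF3 subunits 3 fell (Sf3b1, Sf3b2 and Sf3a3), 2 rose (Sf3a1 and Sf3a2) and 4 did not pass, with a median difference of -0.14. The falls were 33.3% and the rises 22.2%, against 18.0% and 15.0% of all tested genes. Tested genes with a mean of at least 10 had 31.3% and 16.2%. Sf3b1 (chromosome 1, 54985169 to 55027481) encodes the large scaffold that holds the branch-point adenosine. It stood at 13.44, 13.32 and 13.33 in wild type and at 12.94, 13.01 and 13.02 in Prmt6-/-, with a wide gap between the groups. It fell by 0.37 (SE 0.0498, limma adjusted p = 0.00057), and by 0.24 and 0.26 under quantile normalization and centring. Sf3b2, which contacts RNA near the branch point, stood at 12.58, 12.62 and 12.59 against 12.28, 12.37 and 12.31. It fell by 0.28 (SE 0.0458, limma adjusted p = 0.0017), and by 0.18 and 0.17 under those scalings.

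The SF3a trimer split. Sf3a2 (chromosome 10, 80798198 to 80804924) stood at 12.05, 12.15 and 11.95 in wild type and at 12.43, 12.37 and 12.40 in Prmt6-/-, without overlap. It rose by 0.35 (SE 0.0577, limma adjusted p = 0.00182). On the opposite strand Plekhj1, which differed by -0.08, overlaps 16.1% of its exons. Sf3a1, the subunit that carries a ubiquitin-like domain, stood at 11.03, 10.96 and 11.02 against 11.25, 11.19 and 11.12. It rose by 0.18 (SE 0.0543, limma adjusted p = 0.03), and by 0.27 under both scalings. Sf3a3, the third subunit, stood at 11.50, 11.43 and 11.46 against 11.25, 11.36 and 11.31, lower by the least of the SF3 calls (-0.16, SE 0.0518, limma adjusted p = 0.0454).

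The Sf3a1 call was lost without wild-type library 1, 2 or 3 (adjusted p = 0.0515, 0.105 and 0.0507) or Prmt6-/- library 1 or 2 (0.0917 and 0.0864). The Sf3a3 call was lost without any one of the 6 libraries (0.0581 to 0.126), without the filter on low values (0.0692) and under quantile normalization or centring (0.408 and 0.365).

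Sf3b3 and Sf3b6, the beta-propeller subunit and the branch-site p14 subunit, missed the threshold, with differences of -0.14 and -0.15 (limma adjusted p = 0.0653 and 0.0734) and groups that did not overlap. With the stricter filter both passed (0.0454 and 0.0477), Sf3b3 also in limma without its trend (0.0478) and Sf3b6 without wild-type library 1 (0.0421). Sf3b4 and Sf3b5, small subunits of the same particle, differed by -0.03 and -0.0023. Sf3b4 lies 14.1 Mb from Prmt6 on chromosome 3, the nearest of the factors.

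Among the 11 snRNP proteins 3 fell (Snrpd1, Snrpg and Snrpc), 1 rose (Snrpb) and 7 did not pass, with a median difference of -0.06. The falls were 27.3% and the rises 9.09%, against 18.0% and 15.0% of all tested genes. Tested genes with a mean of at least 10 had 31.3% and 16.2%. Snrpd1 and Snrpg encode Sm proteins D1 and G of the 7-membered ring that surrounds spliceosomal snRNAs. Snrpd1 stood at 10.95, 10.96 and 10.98 in wild type and at 10.70, 10.65 and 10.72 in Prmt6-/-, a clear step between tight groups. It fell by 0.27 (SE 0.0493, limma adjusted p = 0.00288). Snrpg stood at 9.87, 9.97 and 9.87 against 9.71, 9.63 and 9.61 and fell by 0.25 (SE 0.0588, limma adjusted p = 0.0099).

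Snrpc, the U1 protein that steadies pairing with the 5' splice site, stood at 10.71, 10.86 and 10.81 against 10.55, 10.58 and 10.66 and fell by 0.20 (SE 0.0599, limma adjusted p = 0.0312). Snrpb encodes Sm protein B, whose tail carries methylated arginines. It stood at 12.56, 12.60 and 12.61 against 12.79, 12.69 and 12.73, and rose by 0.15 (SE 0.0454, limma adjusted p = 0.0326), or by 0.26 under both scalings. Its 3 Prmt6-/- values lay above the wild-type ones, by less than 0.1 between the nearest pair. The Snrpb call was lost without any one of the 6 libraries (adjusted p = 0.0505 to 0.0895). The Snrpc call was lost without wild-type library 2 or 3 (0.114 and 0.0702), Prmt6-/- library 1 or 2 (0.0924 and 0.0976), and under quantile normalization or centring (0.121 and 0.14).

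The other Sm proteins did not pass: Snrpd3 (-0.16, limma adjusted p = 0.107), Snrpe (-0.09), Snrpd2 (-0.05) and Snrpf (0.02). Nor did the U1 protein Snrpa (-0.06), the U2 proteins Snrpb2 (-0.06) and Snrpa1 (0.02). Snrpa1 passed under centring at 0.13 (adjusted p = 0.0424). Ccdc38, on the opposite strand, overlaps 65.9% of the Snrpf exons, at a wild-type mean of 3.66 against 10.86 for Snrpf. Another opposite-strand gene, with no tested value, overlaps 19.5%. What either adds to the Snrpf level was not tested.

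Because partners of 1 complex or close paralogs moved apart, their balance was computed within each library as the difference of log2 values. These 4 pairs were chosen after the values were seen, so they are described without a test, and since the values are not stated to be per length only the change carries meaning. Hnrnpa1 minus Hnrnpa3 was 1.55, 1.86 and 1.88 in wild type and 3.44, 3.43 and 3.15 in Prmt6-/-, a change of 1.57. Hnrnpa1 minus Hnrnpa2b1 was 0.07, 0.29 and 0.24 against 0.84, 0.99 and 0.79, a change of 0.67. U2af1 minus U2af2 was 1.08, 1.02 and 1.45 against 0.51, 0.54 and 0.55, a change of -0.65. In these 3 pairs the genotypes did not overlap. Sf3a2 minus Sf3a3, subunits of 1 trimer, was 0.56, 0.72 and 0.49 against 1.18, 1.01 and 1.09, a change of 0.50, again without overlap. Except for Hnrnpa1 and Hnrnpa2b1, both genes of a pair already separated the genotypes, in opposite directions. For those pairs the lack of overlap was fixed in advance and adds no evidence. In the remaining pair Hnrnpa1 alone already separated the genotypes (0.70) and Hnrnpa2b1 differed by 0.03. Its change of 0.67 thus mostly restates the rise of Hnrnpa1.

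**Figure D4:**
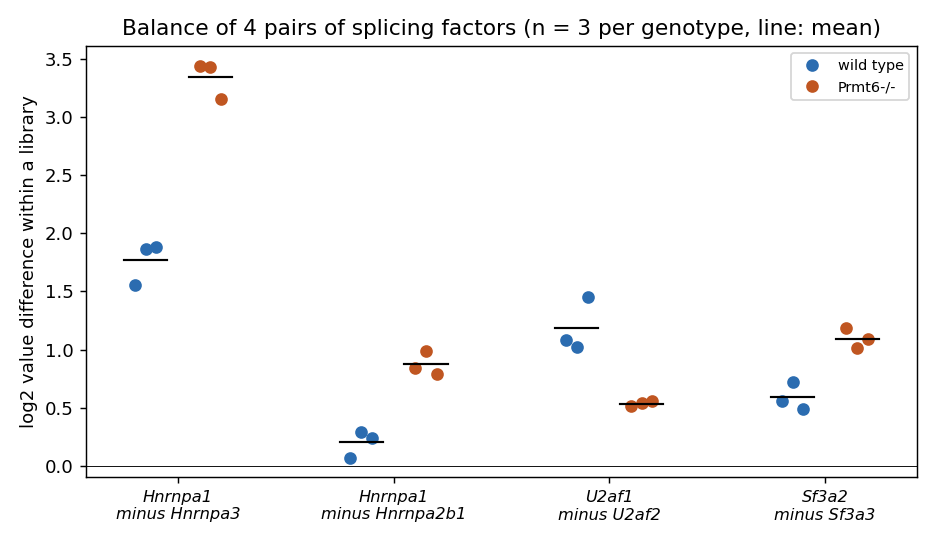
Difference of log2 values between 2 splicing factors within a library (points, left to right replicates 1 to 3; lines, means of 3 libraries), for 4 pairs chosen after their values were seen. The Hnrnpa1 to Hnrnpa3 balance moved from 1.77 ± 0.19 to 3.34 ± 0.17 (SD, n = 3), and the U2af1 to U2af2 balance narrowed in all 3 Prmt6-/- libraries.

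Of the 24 calls, 11 held under every one of the 13 alternatives tried: the rises of Hnrnpa1 and Sf3a2, and the falls of Hnrnpa3, Hnrnpd, Srsf3, Srsf5, U2af1, Sf3b1, Sf3b2, Snrpd1 and Snrpg. The alternatives were the 6 fits that each leave out 1 library, a block for replicate number, no filter and a stricter filter on low values, quantile normalization, centring by level, limma without its trend and the authors' deposited table. The other 13 calls were lost in at least 1 of them. Fits that leave out 1 library have fewer samples, so a lost call there need not mean a smaller difference.

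Genes that work beside these families were read from 6 lists. Of 18 SR kinases and SR-related proteins 1 rose and 2 fell (median 0.03): Srpk1, the cytoplasmic kinase that phosphorylates SR proteins, by 0.36 (limma adjusted p = 0.0227), Tra2a, an SR-like activator of exons, by -0.30 (0.00723), and Srrm1, an SR-related coactivator, by -0.18 (0.0334). Srpk1 lost its call without wild-type library 1 or 2 or Prmt6-/- library 2 or 3 (0.0729, 0.0733, 0.0585 and 0.079). Srrm1 lost its call without wild-type library 1, 2 or 3 or Prmt6-/- library 1 or 2 (0.0553, 0.111, 0.0619, 0.0964 and 0.0873) and under both scalings (0.247 and 0.225). Son, a speckle scaffold, passed without wild-type library 1 alone (-0.21, adjusted p = 0.0193).

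Of 51 other core spliceosome genes 5 rose and 7 fell (median -0.04), a split that became 14 and 4 under quantile normalization and 13 and 4 under centring. Cwc22, which loads the exon junction complex during splicing, fell by 0.86 (limma adjusted p = 9.34e-05), to a similar extent as Hnrnpa3. Aqr, an intron-binding helicase, fell by 0.61 (0.000369) and Prpf31, which joins U4 to U6 and U5, by 0.28 (0.00152). Luc7l2, a U1-associated protein, rose by 0.39 (0.000237). Of 10 LSm proteins, the relatives of the Sm ring, 1 rose and 3 fell (median -0.08): Lsm7 by -0.26 (0.00838), Lsm4 by -0.21 (0.0171), Lsm5 by -0.23 (0.024) and Lsm1, of the cytoplasmic decay ring, by 0.18 (0.0241). Under each scaling 1 LSm fall was left. Lsm4 lost its call without wild-type library 2 or Prmt6-/- library 2 (0.0503 and 0.0722), Lsm5 without wild-type library 1 or 3 or Prmt6-/- library 1 or 2 (0.054, 0.0702, 0.0502 and 0.093), and Lsm1 without wild-type library 1 or 2 or Prmt6-/- library 2 or 3 (0.051, 0.0758, 0.0719 and 0.063).

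Of 38 tested regulators of alternative splicing outside the rule 6 rose and 6 fell (median -0.03), with 10 and 11 rises under quantile normalization and centring. Pcbp1, a C-tract binder related to Hnrnpk, stood at 12.09, 11.72 and 11.46 in wild type and at 10.86, 10.90 and 10.86 in Prmt6-/-. It fell by 0.88 (limma adjusted p = 0.00102), with a wide spread in wild type. Celf1, which binds GU-rich elements, fell by 0.47 (0.00088). Mbnl1, a regulator of developmental exons, rose by 0.57 (0.000688) and Ptbp2, the paralog of the pyrimidine-tract repressor Ptbp1, by 0.66 (0.000923).

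Of 17 genes of Sm-ring assembly and methylation 5 rose and 1 fell (median 0.04), among them Gemin6 and Gemin4 of the SMN complex by 0.39 (limma adjusted p = 0.00198) and 0.31 (0.0187), the snRNP import adaptor Snupn by 0.24 (0.0124) and Wdr77, the partner of the methyltransferase Prmt5, by 0.17 (0.0265). Gemin4 lost its call without wild-type library 2 or Prmt6-/- library 2 (0.0697 and 0.071), and Wdr77 without wild-type library 1 or 2 or Prmt6-/- library 2 or 3 (0.0775, 0.0821, 0.0901 and 0.0746). Of 15 genes of the exon junction complex and nonsense-mediated decay 3 rose and 3 fell (median 0.11). The decay factor Smg5 rose by 0.31 (limma adjusted p = 0.00148), and the junction core proteins Rbm8a and Magoh fell by 0.28 (0.0032) and 0.21 (0.0216). Magoh lost its call without any of wild-type libraries 2 and 3 and Prmt6-/- libraries 1, 2 and 3 (0.051 to 0.0737) and under both scalings (0.134 and 0.0907). Read against 33.0% of all tested genes, none of these lists was tested as a set.

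**Figure D5:**
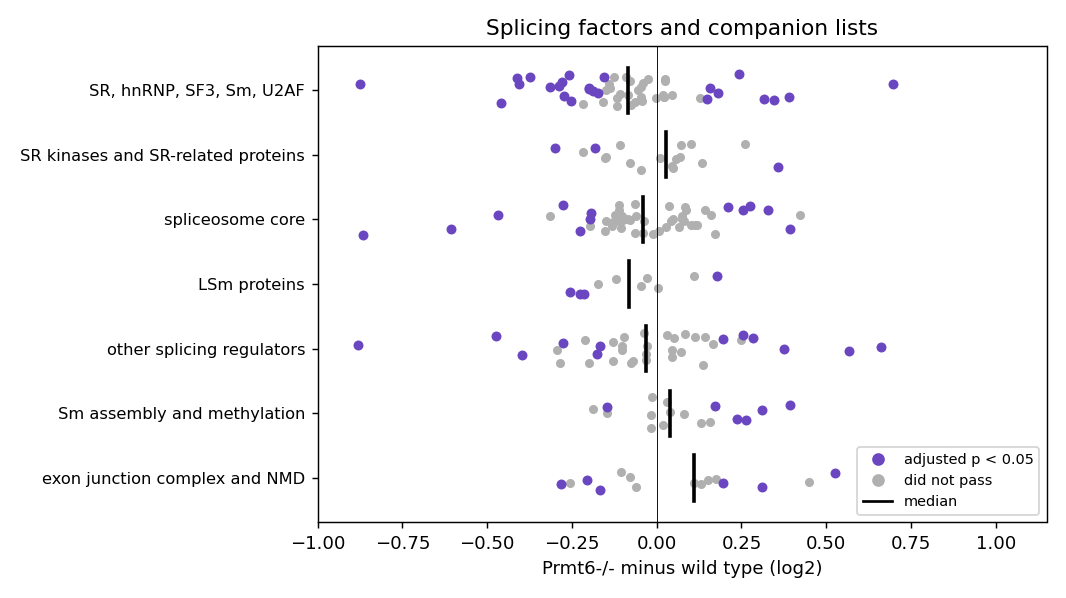
Difference (Prmt6-/- minus wild type, log2) of each tested gene of the 5 splicing factor families together and of 6 companion lists; purple points were called by limma, grey points were not, and black bars are list medians. The list medians lie between -0.08 and 0.11, with called genes on both sides of 0 in every list, and under both scalings the called genes of Sm assembly and methylation were all higher.

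Of the 10 genes of the leukaemic progenitor list 2 rose and 2 fell, against 15.0% higher and 18.0% lower among all tested genes. Kit stood at 10.14 and 9.85, Cd34 at 10.44 and 10.47 and Fcgr3 at 13.28 and 13.30 (means of wild type and Prmt6-/-) and none of them passed, nor did Mpo, Cebpa and Flt3. The granule protease gene Elane rose by 1.45 and Myb by 0.38, while Fcgr2b fell by 0.88 and Ptprc (CD45) by 0.74. Among 7 tested T and NK cell genes 1 rose and 2 fell: Cd3e and Trac were listed at -1.97 and 0, but Cd3d stood at 5.14 and 5.58, Lck at 5.95 and 5.67 and Nkg7 at 10.84 and 9.48. Of 6 tested B cell genes 1 fell, Cd79b, from 9.56 to 8.42. The T and NK cell and B cell counts stand against the same shares, and none of these lists was tested as a set.

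Of 21 proliferation genes 15 fell and the rest did not pass (limma; median -0.31), against 18.0% lower among all tested genes and 31.3% lower among those with a mean of at least 10. Their summed level, on the log2 scale, was 15.96 to 16.00 in wild type and 15.63 to 15.70 in Prmt6-/-. Of 9 tested monocyte and macrophage genes 2 rose and 4 fell, against 15.0% higher and 18.0% lower among all tested genes. The falls included Csf1r by 1.83, Cd68 by 0.94 and Irf8 by 0.70, and the rises were Ccr2 by 1.07 and Cd14 by 0.44. Their summed level moved little, 15.10 to 15.20 against 15.04 to 15.08, with Ly6c2 (14.46 and 14.48) its highest gene. Of 10 mature neutrophil genes 2 rose and 1 fell, against the same shares of all tested genes. Their summed level was 10.68 to 10.89 in wild type against 10.73 to 11.70 in Prmt6-/-. Prmt6-/- library 3 stood apart in some of these genes: Ngp was at 10.13 against 8.35 and 8.80 in libraries 1 and 2, and Camp at 9.61 against 8.37 and 8.46. Cxcr2, which rose, went the other way, at 8.43 against 8.91 and 8.60. Mpo, of the progenitor list, was at 15.72 against 13.34 and 14.37. In wild type Mpo was also highest in library 3 (16.29 against 15.27 and 15.19). Without Prmt6-/- library 3, the splicing factors split into 3 higher and 14 lower. The 6 fits that each leave out 1 library gave 2 to 7 higher and 11 to 16 lower, so this library did not stand apart there. The part of these cell type and proliferation genes in the splicing factor differences was not tested. In bulk RNA, fewer cells of a type and less RNA per cell cannot be told apart.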

How the data were processed

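Per the labels' protocols, poly(A) RNA was captured on oligo(dT) beads, reverse transcribed from random primers and amplified over 15 PCR cycles. GRCm38 is the build in the submitters' processing notes, which also name the tools Trim Galore, kallisto and HOMER but no versions. Per the file headers the deposited table was written by HOMER's differential expression command. Its expression values are log2 values normalized between samples by the authors, by a transformation that the file does not name, and they run from -1.97 to 18.0. The table also holds the authors' log2 fold change, p-value and adjusted p-value for each gene, whose test is unnamed. Depth and the use of strand in counting are not given in the sources used here.

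Of 30037 named genes, 15454 reached a value of 1 in 3 or more libraries and were tested, and 1 unnamed entry was left out. The comparison of genotypes used limma 3.58.1 (R 4.3.3) with its mean-variance trend, on the values as deposited; tests were two-sided, with an adjusted p under 0.05 by Benjamini-Hochberg. The planned pseudocount was left out, since values were already log2. The fit was tested on simulated data. Positions and exon overlaps come from GENCODE annotation of GRCm38, where all 54 factors were matched, and promoter sequences from RefSeq (GRCm38.p6).

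Values in all libraries were to be given for Srsf2, Hnrnpa1, Sf3b1 and U2af1 and for the 6 factors of each family with the smallest p; other called factors, and up to 4 genes of each companion list with the smallest p, are also named. Some genes of these lists are not reported here. Zrsr2 is named as a gene mutated in myeloid neoplasms. The families and the companion lists were chosen with earlier results of these data known, and the members of each family by symbol. Groups came from the labels.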

Additional observations from a re-analysis of the deposited data

How the results depend on the processing

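Depth limits cannot be stated because the values are not counts. The pseudocount alternative was not run, since the values are already log2. With the authors' deposited table in place of limma no factor changed its call, and the difference of Prmt6 was -7.66. Leaving out 1 library at a time gave 3891 to 4598 genes called, a Prmt6 difference of -2.25 to -2.05, and 2 to 7 factors higher and 11 to 16 lower. By family, calls were 0 to 2 higher for SR proteins, 1 to 3 for hnRNPs, 1 to 2 for SF3, 0 to 0 for snRNP proteins and 0 to 1 for U2AF, and 2 to 3 lower for SR proteins, 4 to 6 for hnRNPs, 2 to 3 for SF3 and 2 to 3 for snRNP proteins. For the companion lists they were 0 to 1 higher and 1 to 4 lower for SR kinases and SR-related proteins, 4 to 6 lower for the spliceosome core, 0 to 1 higher and 1 to 3 lower for LSm proteins, 2 to 5 higher and 0 to 1 lower for Sm assembly, and 1 to 3 lower for the exon junction complex and decay. The cause was not tested.

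Whether replicate numbers pair the samples could not be decided from 3 libraries per genotype. Deviations of same-numbered libraries correlated only weakly, at 0.0948, 0.0727 and 0.172. Each library nevertheless correlated best with its own number, a hint from the data and not from the design. With the replicate number as a block 5074 genes were called, the factors split into 8 higher and 15 lower, Sf3a3 lost its call (adjusted p = 0.0665), and 0 Sm assembly genes fell.

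Other filters and the fit without trend moved few counts. SF3 subunits lower became 5 with the stricter filter, U2AF higher became 0 without the filter and 0 without the trend, and Sm assembly lower became 0 without the filter and 2 with the stricter one. Quantile normalization and centring by level gave 9 and 9 factors lower, 2 and 2 hnRNPs lower, 3 and 3 SR kinase genes higher and 1 and 1 lower, 14 and 13 core genes higher and 4 and 4 lower, 1 and 1 LSm genes lower, 10 and 11 other regulators higher, 0 and 0 Sm assembly genes lower and 1 and 1 junction and decay genes lower. Centring gave 2 snRNP proteins higher.

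No called factor changed sign in any alternative. Factors that were not called did, most of them close to 0, although Hnrnpll was at -0.14 in the main fit. Under quantile normalization and centring respectively the differences were 0.031 and 0.038 for Srsf4, 0.027 and 0.034 for Snrpd2, 0.069 and 0.082 for Sf3b4, 0.017 and 0.028 for Snrpb2, 0.021 and 0.015 for Srsf7, 0.024 and 0.029 for Hnrnpdl, 0.033 and 0.026 for Hnrnpab, 0.00012 and 0.018 for Hnrnpm, 0.084 and 0.083 for Sf3b5 and 0.034 and 0.028 for Snrpa. With 1 library left out at a time they ranged from -0.0080 to 0.108 for Srsf10, -0.027 to 0.083 for Hnrnpr, -0.261 to 0.042 for Hnrnpll, -0.127 to 0.0070 for Srsf7, -0.023 to 0.085 for Hnrnpa2b1, -0.080 to 0.0039 for Hnrnpdl, -0.0025 to 0.062 for Snrpf, -0.201 to 0.066 for Hnrnpab, -0.013 to 0.038 for Srsf11 and -0.023 to 0.014 for Sf3b5.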
